A study of Mus musculus with 16 samples.

Results

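Mmp12 macrophages are tumour macrophages that carry transcripts of macrophage metalloelastase, a secreted protease that degrades elastin. They were taken from droplet single-cell RNA sequencing of CD45-enriched cells of B16 melanomas, and were chosen by a rule on raw unique molecular identifier (UMI) counts, Mmp12 among them, without clustering. A cell had 200 or more genes and at most 10% mitochondrial UMIs, 10 or more UMIs of the complement genes C1qa, C1qb and C1qc together, no UMI of Cd3d, Cd3e or Cd3g, at most 1 of Nos2, at most 1 of Lyve1, Cd163 and Cd209f together, at most 4 of Rsad2, Ifit1, Ifit2 and Ifit3 together, and 3 or more of Mmp12. Of 116552 barcodes, 99357 passed the quality limits, 19366 of these passed every condition but Mmp12 (called gated macrophages here), and 3288 were Mmp12 macrophages, 3.31% of the cells kept and 17.0% of gated macrophages. The gated macrophages with 0 Mmp12 UMIs, 13845 cells, served as the comparison cells.

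C57BL/6J mice received 1000000 cells of the Bro4.1 line of B16 melanoma under the skin, either control cells or cells lacking B2m, the light chain of MHC class I. Sample labels list this genotype under the mouse, but the description of the design gives it to the injected melanoma cells, which is the reading used here. Each mouse had 100 µg of agonistic antibody to CD40, or of rat IgG2a isotype antibody, injected into the abdomen on days 6, 9 and 12, and tumours were taken on day 14. Hashtag antibodies marked the mice, which were pooled in 8 lanes: 5 mice with control tumours and isotype antibody (1051 Mmp12 macrophages), 2 with control tumours and anti-CD40 (253), 5 with B2m-null tumours and isotype antibody (1248) and 4 with B2m-null tumours and anti-CD40 (736). The lanes of the control anti-CD40 group are technical repeats of 1 pool, so that group rests on 2 mice. All mice carry the same tumour line, all received an antibody, and the ages were not given in the sources used here.

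Lanes held 46.0 to 99.3 M UMIs, and a lane pair shared 41 to 92 cell barcodes, of which 1 barcode was a member in both lanes. Hashtags assigned 38.3% of barcodes to a single mouse in B2m-null isotype replicate 1, 61.4% in B2m-null anti-CD40 replicate 1 and 74.6% to 94.3% in the other lanes. Of the Mmp12 macrophages, 2550 were assigned to a mouse, 445 were hashtag doublets and 293 had no call. Only assigned cells entered the comparisons over mice. Runs with lanes as the unit used all cells, assigned or not. So did the percentages per group of cells removed by the rule or too shallow to thin. B2m, the gene lost from the implanted cells, averaged 3624 ± 879 CPM (UMIs per 1000000 UMIs of the summed cells, for B2m scaled by the trimmed mean of M values, TMM) in Mmp12 macrophages of control isotype mice (SD, n = 5) and 2531 ± 386 in those of B2m-null isotype mice (SD, n = 4), a difference that was not called (edgeR adjusted p = 0.0703); these are host cells and do not test the deletion in the tumour cells.

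Mmp12 is made mainly by macrophages and cuts elastin and other matrix proteins. Gpnmb is a membrane glycoprotein of lysosomes and melanosomes that macrophages produce when their lysosomes are loaded, Atp6v0d2 is a subunit of the proton pump that acidifies lysosomes and is prominent in osteoclasts, and Ctsl encodes cathepsin L, a lysosomal cysteine protease. CD40 is a receptor of the TNF receptor family on macrophages, dendritic cells and B cells, and agonistic antibodies against it mimic the signal that helper T cells give through CD40 ligand.

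The promoters of Mmp12, which defines the cells, of the marker Gpnmb, and of Mmp13 and Spp1, a secreted protease and a secreted matrix protein among the 12 genes of highest ratio below, are shown as the stretch upstream of the RefSeq start site on GRCm38.p6, each read 5′ to 3′ on the gene's strand. Capitals mark the single motif found in the printed stretch, TGANTCA (the AP-1 site) in Mmp13 and GAGGAAGT or its reverse complement (a PU.1 type site, the factor that specifies macrophages) in Mmp12 and Spp1; the printed part of the Gpnmb promoter held none of those searched. Mmp12 (ENSMUSG00000049723, chr9:7344381-7369499, plus strand) and Mmp13 (ENSMUSG00000050578, chr9:7272514-7283331, plus strand) lie in the same cluster of metalloproteinase genes, and Gpnmb (ENSMUSG00000029816, chr6:49036546-49070929, plus strand), Atp6v0d2 (ENSMUSG00000028238, chr4:19876841-19922605, minus strand), Ctsl (ENSMUSG00000021477, chr13:64359337-64370890, minus strand) and Spp1 (ENSMUSG00000029304, chr5:104435118-104441050, plus strand) lie on other chromosomes. Gene spans are those of the GENCODE annotation of GRCm38.
Mmp12, chr9:7344147-7344380, plus strand: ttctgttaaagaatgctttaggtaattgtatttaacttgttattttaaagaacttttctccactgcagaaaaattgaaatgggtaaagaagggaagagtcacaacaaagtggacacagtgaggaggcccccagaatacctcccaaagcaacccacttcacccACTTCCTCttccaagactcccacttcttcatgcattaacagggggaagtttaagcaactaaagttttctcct
Mmp13, chr9:7272264-7272513, plus strand: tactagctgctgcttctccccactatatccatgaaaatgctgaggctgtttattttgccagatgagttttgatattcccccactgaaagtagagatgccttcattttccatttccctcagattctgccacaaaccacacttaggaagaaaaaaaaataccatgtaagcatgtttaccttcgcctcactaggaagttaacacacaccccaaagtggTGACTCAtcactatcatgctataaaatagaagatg
Spp1, chr5:104434861-104435110, plus strand: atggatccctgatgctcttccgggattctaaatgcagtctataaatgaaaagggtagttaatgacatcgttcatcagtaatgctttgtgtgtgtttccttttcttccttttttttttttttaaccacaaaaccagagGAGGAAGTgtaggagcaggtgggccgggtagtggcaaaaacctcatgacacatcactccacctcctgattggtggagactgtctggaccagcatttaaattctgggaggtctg
Gpnmb, chr6:49036268-49036517, plus strand: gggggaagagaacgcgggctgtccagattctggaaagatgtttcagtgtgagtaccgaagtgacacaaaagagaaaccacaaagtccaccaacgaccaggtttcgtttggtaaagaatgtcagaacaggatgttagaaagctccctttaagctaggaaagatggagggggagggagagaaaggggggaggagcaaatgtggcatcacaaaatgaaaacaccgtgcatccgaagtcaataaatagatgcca

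In all, 4 motifs were searched on both strands of whole RefSeq promoters, 250 bases before to 50 bases after the start site: CACGTG (the E-box), TCATGTG (the M-box of the MITF and TFE factors), TGANTCA and GAGGAAGT. No motif contains another, and of all 32851 promoters 7.15%, 3.77%, 7.81% and 3.2% held them in that order. For the 12 genes that stood highest in Mmp12 macrophages (named below), 9 had a promoter in the table, 11 promoters in all, of which 4 held TGANTCA (36.4%, those of Gpnmb, Hilpda and Mmp13) and 1 held each of the other motifs. For the 12 lowest genes, 11 had a promoter, 15 in all, of which 2 held TGANTCA (13.3%, those of Cxcl9 and Cxcl10), 2 held GAGGAAGT and none held the other motifs. For the 4 markers, 3 had a promoter, 4 in all, of which 2 held TGANTCA (50%, those of Gpnmb and Mmp12). Each of the other motifs was held by 1, CACGTG in Ctsl and TCATGTG and GAGGAAGT in Mmp12. Whole promoters thus hold matches that the printed stretches do not. These matches describe letters in a window and no binding was measured.

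The label was checked against macrophage markers and against markers of other cells. After thinning each cell to 5000 UMIs, 72.1% of 2696 Mmp12 macrophages had a Gpnmb UMI, against 30.2% of 7215 comparison macrophages and 6.48% of 2641 T cells, which should lack the gene and mark the level of free RNA (median depths before thinning 10158, 8049 and 7298 UMIs). These T cells were chosen with Cd3 UMIs and without a C1q UMI. Barcodes with free C1q RNA were thus left out, and the level of free RNA may be understated. Atp6v0d2 was detected in 53.9%, 13.7% and 1.29% of these cells and Ctsl in 95.7%, 86.3% and 20.1%. The general macrophage genes Cd68, Adgre1 (F4/80) and Csf1r (the receptor for colony stimulating factor) were detected in 92.6%, 73.0% and 52.6% of Mmp12 macrophages, in 85.6%, 84.7% and 65.3% of comparison macrophages and in 17.3%, 6.29% and 10.8% of T cells. The cells thus carried macrophage genes and the 3 markers that the rule did not use. Of the T cell markers, Cd3d, Cd3e and Cd3g are at 0 by the rule, and the summed level of the 9 T cell markers was at most 17.95 CPM in any mouse. The 9 macrophage markers summed to 6458 to 13202 CPM, and to 9245 to 18960 CPM in the comparison cells. They include C1qa, C1qb and C1qc, which the rule requires in both sets. The melanoma markers summed to 66.9 to 345 CPM, with 83.8 and 87.9 in control anti-CD40 mice. In the comparison cells they summed to 182 and 688 CPM in control anti-CD40 mice and to 57.7 to 373 in the other groups. Gpnmb is also a melanosome gene, and the part of tumour RNA in its level was not tested.

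Compared with Mmp12-negative gated macrophages of the same mouse, Mmp12 macrophages had more transcripts of Mmp13, of lysosomal and lipid genes and genes induced by low oxygen, and fewer of interferon-gamma induced chemokines and complement C3. This contrast chose the cells, so it is described with no test, in plain CPM over 15 mice (median log2 ratio over mice, 0.5 count added). Of 5946 genes with 20 CPM or more in either set, 364 (6.12%) were higher and 721 (12.1%) lower in every mouse, with a median log2 ratio over all genes of -0.16. The median depth was 8824 UMIs against 5183, a difference that a rule on raw Mmp12 UMIs favours, and the ratios of the genes named below kept their direction when cells were thinned to 5000 UMIs. The limits on Nos2 and the interferon genes are on raw UMIs too, so they hold the deeper cells to a lower fraction of these genes. Thinning after the choice does not undo this, and its part in the lower interferon-gamma genes was not tested.

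Among the 12 genes that stood highest, chosen from those at a mean of 50 CPM or more, Mmp13 (collagenase 3, which cuts fibrillar collagen) had the largest ratio: its level was 124 to 737 CPM over the mice against 9.47 to 42.2 in the comparison cells, a median log2 ratio of 3.89. Gpnmb averaged 944 CPM against 177, with a median log2 ratio of 2.36 that ran from 1.81 to 3.43 over mice, and Atp6v0d2 stood at 2.66. Spp1, which encodes osteopontin, a secreted adhesive phosphoprotein, averaged 2535 CPM against 556 (2.10). The remaining 8 were Sdc1 (syndecan 1, 2.98), Il7r (the interleukin 7 receptor chain, 2.67), Fabp4 (a fatty acid binding protein, 2.37), Rassf8 (2.16), Hilpda (a lipid droplet protein induced by hypoxia, 2.13), Egln3 (an oxygen sensing prolyl hydroxylase, 2.08), F7 (coagulation factor VII, 2.05) and Bhlhe41 (a transcription repressor, 2.02). Ctsl, the remaining marker, averaged 3571 CPM against 978 (1.86) and was higher in every mouse. The choice of the 12 genes required the same of each of them.

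The 12 genes that stood lowest, from those at 50 CPM or more in the comparison cells, were Tmem176b (-2.28), Ighm (-2.11), Tmem176a (-2.08), Cbr2 (-1.54), Pou2f2 (-1.40), Cxcl10 (-1.38), Cxcl9 (-1.32), Igfbp4 (-1.32), Marcksl1 (-1.25), Calhm6 (-1.19), Ly6c2 (-1.17) and Prkcb (-1.14). Cxcl9 and Cxcl10 are interferon-induced chemokines that attract T cells through CXCR3, and Cxcl9 averaged 311 CPM against 716. Ly6c2 is a marker of inflammatory monocytes and Ighm encodes the heavy chain of IgM. The choice required each of the 12 to be lower in all 15 mice.

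**Figure D1:**
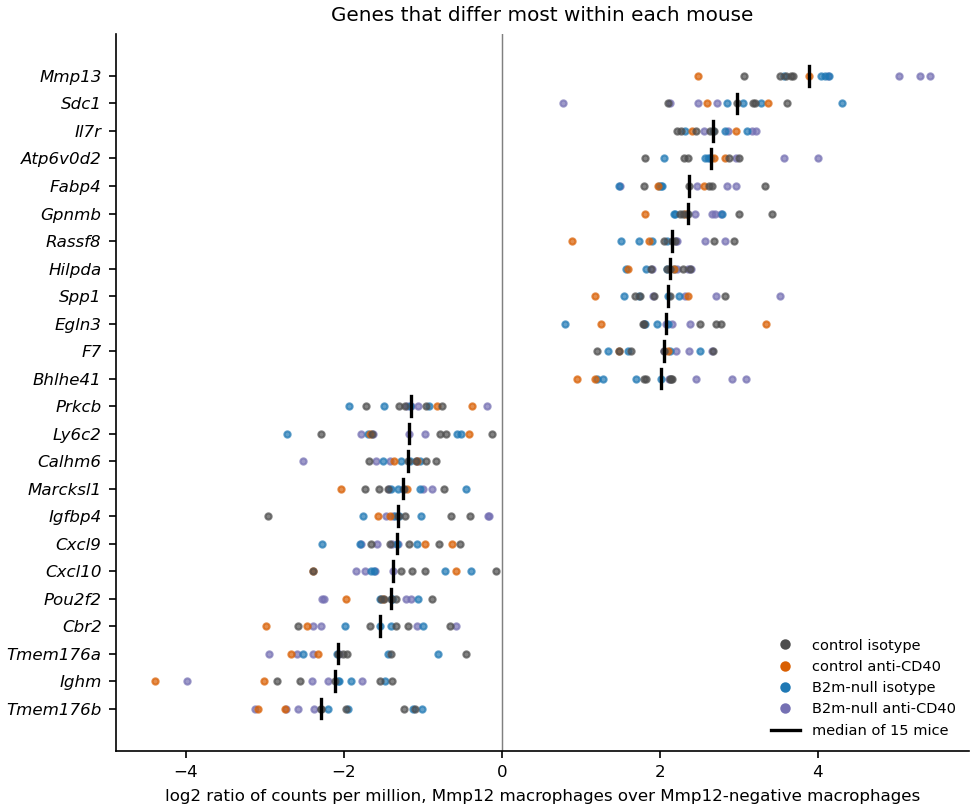
Log2 ratio of CPM between Mmp12 macrophages and Mmp12-negative gated macrophages of the same mouse, for the 12 genes that stood highest and the 12 that stood lowest; each point is 1 of 15 mice and the bar is the median. The 24 genes were chosen among those of 1 sign in every mouse, so no point can cross 0. Mmp13 reaches the largest median, 3.89.

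By gene list, the glycolysis and hypoxia genes had the largest share higher in every mouse. Of 25 measured, 22 were higher and none lower (median log2 ratio 0.73 against -0.16 over all genes). The glucose transporter Slc2a1 was at 1.65, Ndrg1 at 1.87, lactate dehydrogenase Ldha at 0.73 and the mitophagy gene Bnip3 at 1.37. Of 19 lipid-associated macrophage genes, 14 were higher and 1 lower in every mouse (median 0.78), among them the tetraspanin Cd9 (1.97), the scavenger receptor Cd36 (1.47), Fabp5 (1.41), galectin 3 (Lgals3, 1.32) and the lipid receptor Trem2 (0.69). Apoe, the lipid carrier that often marks such cells, was higher in 3 of 15 mice only (-0.50). The lysosome was represented in part: 9 of 18 proton pump subunits and 12 of 28 cathepsins and hydrolases were higher in every mouse (medians 0.29 and 0.21), while 2 of the latter were lower, cathepsin C (Ctsc) at -0.66 among them.

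Other lists were more mixed. Of 12 metalloproteinases and inhibitors, 5 were higher and 2 lower in every mouse, with the neutrophil collagenase Mmp8 at 2.99 (a mean of 45.2 CPM). Of 10 osteoclast genes, 1 was higher in every mouse, namely Atp6v0d2; Ctsk, the collagenase of osteoclasts, was higher in 14 of 15 mice (2.07). Of 18 iron genes, 8 were higher and 2 lower, with heme oxygenase Hmox1 at 1.08 and ferritin heavy chain Fth1 at 1.01. Arginase Arg1, of the alternative activation list, stood at 1.25, while 3 members of that list were higher and 3 lower. On the lower side were interferon-gamma response genes (0 higher, 9 lower of 20, median -0.83), MHC class I genes (0 and 4 of 13), cell cycle genes (0 and 5 of 20) and complement genes (0 and 2 of 7, with C3 at -1.09). The rule itself bounds Nos2 and 4 interferon genes in both sets, so no value is given for them. Those raw limits are stricter for the deeper Mmp12 macrophages, and their part in the lower lists was not tested.

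Several of these genes were also read by the number of Mmp12 UMIs, and those given here were graded with it. In gated macrophages thinned to 5000 UMIs and averaged over the 8 lanes, Gpnmb was at 242 CPM in cells with no Mmp12 UMI, 494 with 1 or 2, 801 with 3 to 5, 1066 with 6 to 11 and 1435 with 12 or more. Mmp13 went from 26.1 to 66.1, 122, 209 and 711 CPM over the same bins and Atp6v0d2 from 52.5 to 412. Cxcl9 went the other way, from 820 to 550, 477, 397 and 266 CPM. The bins held 7836, 1338, 626, 578 and 1025 cells, with as few as 20 in a lane. The limit of 3 UMIs fell within this gradient: cells with 2 raw Mmp12 UMIs (540) had 405 CPM of Gpnmb and 1617 of Ctsl, and cells with 3 (313) had 447 and 1932. Mmp13 was at 91.3 CPM just outside and 89.0 just inside the limit, and Spp1 at 1329 and 1479.

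**Figure D2:**
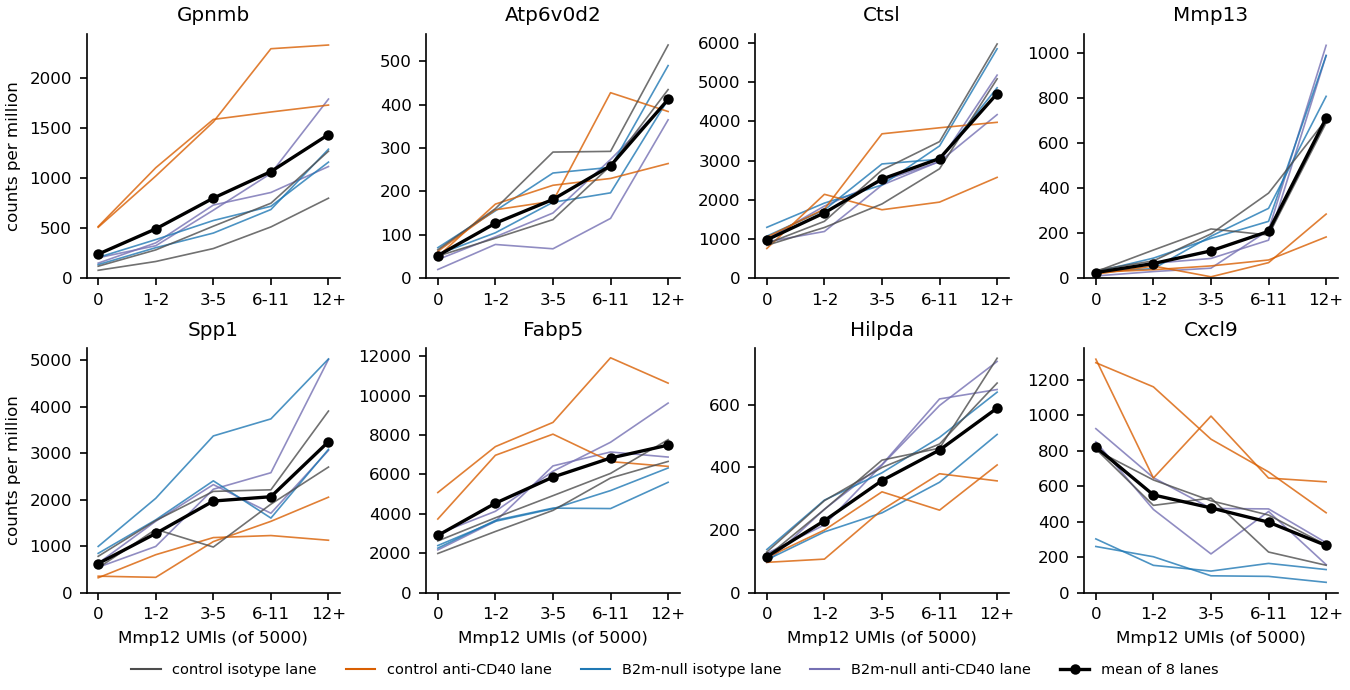
Level in CPM of 8 genes in gated macrophages thinned to 5000 UMIs, by the number of Mmp12 UMIs left in the cell; thin lines are the 8 lanes and the thick line is their mean. Gpnmb, Atp6v0d2, Ctsl, Mmp13, Spp1, Fabp5 and Hilpda have a higher mean in the top bin than at 0, and Cxcl9 goes down from 820 to 266 CPM.

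The first question between groups was whether Mmp12 macrophages made up more or less of the gated macrophages. After thinning to 5000 UMIs they were 14.6%, 15.2%, 19.4%, 17.3% and 20.7% in the control isotype mice and 13.9% and 8.32% in the control anti-CD40 mice. In B2m-null isotype mice they were 29.4%, 12.7%, 25%, 24.9% and 22.7%, and in B2m-null anti-CD40 mice 15.7%, 17.2%, 24.4% and 21.4%. The control anti-CD40 mice were below every other mouse except the B2m-null isotype mouse at 12.7%, which lay between them and had the fewest cells at this depth, 71.

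The group means were 17.5% ± 2.63 (SD, n = 5), 11.1% ± 3.97 (n = 2), 22.9% ± 6.24 (n = 5) and 19.7% ± 3.97 (n = 4). Under anti-CD40 the share differed by -6.34 percentage points in control tumours (exact two-sided permutation test over mice, p = 0.0476, the smallest this design allows, 0.178 after adjustment over 4 comparisons) and by -3.28 points in B2m-null tumours (p = 0.389, adjusted 0.389). Between tumours, the B2m-null share was 5.48 points above control under isotype (exact permutation p = 0.119, adjusted 0.178) and 8.54 points under anti-CD40 (p = 0.133, adjusted 0.178, with 0.0667 the smallest possible). None of the 4 passed the adjusted threshold of 0.05. Without the B2m-null isotype mouse of 12.7%, the difference under isotype was 8.04 points (exact permutation, adjusted p = 0.0318). Cells too shallow to thin were 40.3%, 55.7%, 34.3% and 38.0% of the gated macrophages of the 4 groups in the order above, and the shares before thinning were 15.8%, 6.91%, 21.8% and 16.7%.

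Which cells the rule removes also differed between groups. Of the cells with enough C1q and Mmp12 UMIs, those with more than 1 Nos2 UMI were 15.04% in control isotype, 45.7% in control anti-CD40, 5.16% in B2m-null isotype and 40.1% in B2m-null anti-CD40 tumours. Nos2 encodes the inducible nitric oxide synthase of activated macrophages. In the same order, the limit on the interferon genes removed 31.5%, 22.2%, 17.7% and 26.97% of these cells, that on Cd3 13.2%, 24.4%, 6.90% and 21.5%, and that on Lyve1, Cd163 and Cd209f 5.66%, 2.60%, 16.04% and 5.04%, and a cell can fail several. Mmp12 macrophages in the sense of the rule were 52.2%, 34.6%, 63.7% and 36.7% of all C1q and Mmp12 positive cells, and everything below concerns cells with at most 1 Nos2 UMI.

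**Figure D3:**
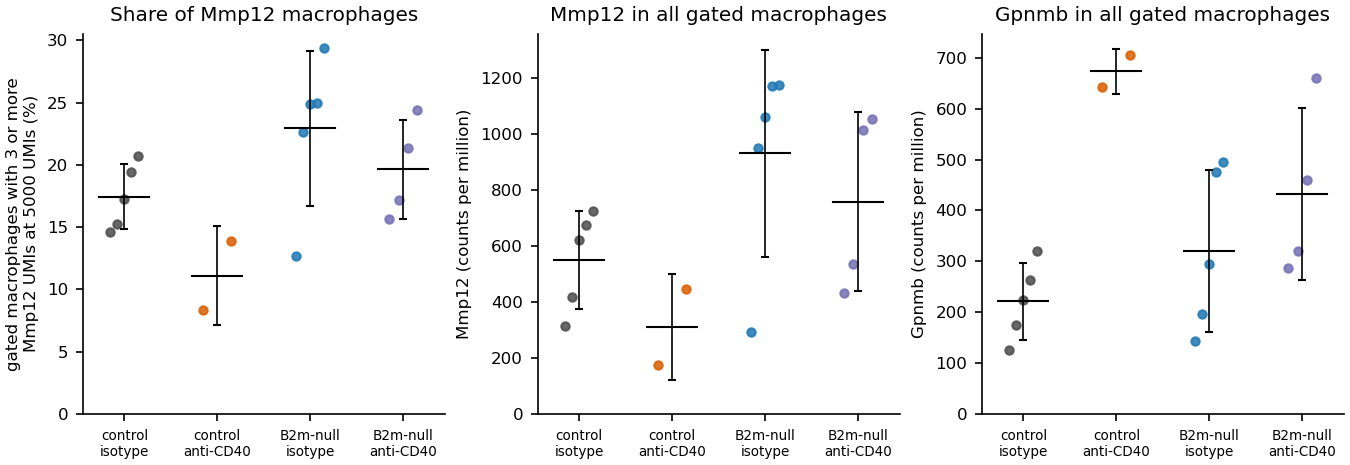
Share of Mmp12 macrophages among gated macrophages thinned to 5000 UMIs (percent), and levels of Mmp12 and Gpnmb in all gated macrophages (CPM); each point is 1 mouse, with the group mean and SD. The control anti-CD40 mice are lowest in the share, at 8.32% and 13.9%, apart from 1 B2m-null isotype mouse at 12.7%, and have the highest Gpnmb in their genotype, 642 and 705 CPM.

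The 4 markers were then read in all gated macrophages, whose gate does not use Mmp12, with edgeR's quasi-likelihood test over 16 mice and Benjamini-Hochberg adjustment over all genes. From here on, levels of single genes are CPM scaled by TMM, summed marker levels stay unscaled CPM, and fold changes are log2 values ± SE. Gpnmb was the only one of the 4 to pass in any comparison: it was at 224, 126, 174, 263 and 321 CPM in control isotype mice and at 642 and 705 in control anti-CD40 mice, a rise of 1.598 ± 0.38 (adjusted p = 0.00827; 16.8% of 11712 genes were called in this comparison, 9.33% higher and 7.48% lower). The groups did not overlap, but the call ended with lanes as the unit (1.56) and without control anti-CD40 mouse 2 (1.53). Either setting leaves 1 treated unit, and the spread comes from the other groups.

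Mmp12 itself was at 314, 419, 620, 676 and 724 CPM in control isotype mice and at 445 and 176 in control anti-CD40 mice (-0.85 ± 0.48, adjusted p = 0.246). In B2m-null tumours it averaged 930 ± 369 CPM under isotype (SD, n = 5) and 759 ± 321 under anti-CD40 (SD, n = 4), with a change of -0.30 ± 0.36 (adjusted p = 0.573). The difference between B2m-null and control tumours was 0.76 ± 0.34 under isotype (adjusted p = 0.193) and 1.31 ± 0.50 under anti-CD40 (adjusted p = 0.107), and 31.9%, 8.03% and 8.78% of genes were called in these last 3 comparisons (16.3%, 3.54% and 3.89% higher, and 15.6%, 4.48% and 4.88% lower). None of these 4 was called, which does not show that the levels were alike. Leaving out 1 mouse at a time, the Mmp12 change under anti-CD40 ran from -1.65 (without control anti-CD40 mouse 1) to -0.31 (without mouse 2) in control tumours, and in B2m-null tumours from -0.52 (without isotype replicate 1 mouse 2) to -0.10 (without anti-CD40 replicate 1 mouse 1), with no call. Mmp12 was called between tumours under anti-CD40 without the B2m-null isotype mouse at 292 CPM (1.31, adjusted p = 0.0467), a mouse outside that contrast that shares its estimate of spread. Atp6v0d2 and Ctsl were not called in any of the 4 comparisons, with changes of -0.40 ± 0.33 and 0.014 ± 0.26 under anti-CD40 in control tumours, the latter turning to -0.14 with library size alone. In B2m-null tumours Atp6v0d2 changed by -0.53 ± 0.26 under anti-CD40 (adjusted p = 0.129) and was called with library size alone (-0.73, adjusted p = 0.0304) and without B2m-null anti-CD40 replicate 2 mouse 1 (-0.79, adjusted p = 0.0360).

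Within the Mmp12 macrophages, gene levels were compared over 15 mice with summed counts (1 B2m-null isotype mouse with 18 members was left out), edgeR's quasi-likelihood test and adjustment over 9679 genes. Anti-CD40 in control tumours raised some lysosomal and interferon-gamma response genes and lowered monocyte chemokines, the mannose receptor and some cell cycle genes. 703 genes were called (7.26%), 492 higher (5.08%) and 211 lower (2.18%). Where library size alone set the scale, the median of all genes moved from -0.03 to -0.25 and the split became 276 higher and 795 lower, so every change here is relative to the median gene.

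Gpnmb was at 623, 387, 531, 654 and 892 CPM in Mmp12 macrophages of control isotype mice and at 1914 and 2005 in those of control anti-CD40 mice, a rise of 1.65 ± 0.26 (edgeR adjusted p = 0.000196). Both treated mice stood above every isotype mouse, and the rise was called in every alternative run. Prosaposin (Psap), the precursor of the saposins that help lysosomes break down sphingolipids, was at 6594, 5810, 5282, 6446 and 7134 CPM under isotype and at 11658 and 11667 under anti-CD40 (0.90 ± 0.11, adjusted p = 1.39e-05). 9 of 29 cathepsins and hydrolases rose and none fell (median 0.35 against -0.03 over all genes), including the cathepsin inhibitor cystatin B (Cstb, 0.94) and cathepsin D (Ctsd, 0.77). 7 of 18 proton pump subunits rose and none fell (median 0.35), with Atp6v0b at 0.73 and Tcirg1 at 0.80. With library size alone these were 3 of 29 and none, and 3 and 1 of 18 (both medians 0.14). The markers Ctsl and Atp6v0d2 were not called: Ctsl averaged 3541 ± 393 CPM under isotype and 3452 ± 461 under anti-CD40 (-0.04 ± 0.22, edgeR adjusted p = 0.963), and Atp6v0d2 293 ± 67.5 and 325 ± 31.1 (0.13 ± 0.21, adjusted p = 0.804).

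Among the matrix genes, Mmp13 was at 345, 332, 357, 433 and 381 CPM in control isotype mice and at 207 and 142 in control anti-CD40 mice, a log2 change of -1.15 ± 0.26 (edgeR adjusted p = 0.00781). The ranges did not meet. Spp1 averaged 2146 ± 470 and 1179 ± 720 CPM (-0.84 ± 0.36, adjusted p = 0.186). Of 16 metalloproteinases and inhibitors 2 rose and 1 fell. Of 21 lipid-associated genes 6 rose and 2 fell (median 0.30; 4 and 3 with library size alone).

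Chemokines that draw monocytes through CCR2 were lower. Ccl2 was at 3527, 4942, 4076, 2520 and 3299 CPM under isotype and at 1579 and 1317 under anti-CD40 (-1.34 ± 0.22, edgeR adjusted p = 0.000292), and Ccl7 (-1.41) and Ccl12 (-1.68) fell as well. Of the 16 genes of the chemokine list, which leaves out Cxcl9 and Cxcl10, 5 fell and none rose. Mrc1, the mannose receptor CD206, went from 549, 955, 679, 944 and 718 CPM to 337 and 336 (-1.19 ± 0.19, adjusted p = 0.000174), and Mgl2 (CD301b), another lectin, from 65.3 to 124 CPM down to 4.59 and 3.76 (-4.38 ± 0.93, adjusted p = 0.00405). Of 19 alternative activation genes 3 fell and 1 rose (median -0.74; 7 fell and none rose with library size alone). 7 of 20 cell cycle genes fell and none rose (median -0.76), with the replication helicase Mcm6 at -1.40 and topoisomerase Top2a at -1.09.

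4 of 20 interferon-gamma response genes rose (median 0.58, and 2 rose with library size alone), among them Cxcl9 (1.09) and Cd274 (PD-L1, 0.90). Cxcl9 was not called with library size alone (edgeR adjusted p = 0.0769), with DESeq2 or with Mmp12 at 2 UMIs or more. Leaving out control isotype replicate 1 mouse 3, replicate 2 mouse 1 or replicate 2 mouse 2 also ended its call. Of 13 MHC class I genes 3 rose and 1 fell (2 and 2 with library size alone), with H2-D1 at 0.80; H2-D1 and H2-K1 share sequence, so reads may be split between them. None of 8 MHC class II genes passed. Complement C3 rose from 18.9 to 45.6 CPM under isotype to 80.3 and 133 CPM (2.10 ± 0.32, adjusted p = 0.000118). The TNF-induced gene Tnfaip2 rose by 1.32 while 2 of 23 NF-kB and CD40 response genes rose and 1 fell in all (1 and 3 with library size alone). 2 of 18 iron genes rose, Fth1 (0.88) and biliverdin reductase Blvrb (0.94). Macrophage migration inhibitory factor (Mif, 0.71) rose and the cholesterol acyltransferase Soat1 rose (0.63). The chaperone Hspa5 (-0.67) was one of 3 stress genes of 16 that fell (6 with library size alone).

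Among called genes at a mean of 20 CPM or more in either group whose mice did not overlap, the largest rises were those of Gm15056 (6.42), the acute phase protein Orm1 (4.17), the secreted protease Htra1 (3.97), Ly6i (3.40), H2-M2 (3.01), the acute phase protein Saa3 (2.66), S100a8 (2.49) and the caveolin Cav1 (2.44). Htra1 was at 15.6, 2.17, 2.78, 5.14 and 5.32 CPM under isotype and at 71.1 and 90.3 under anti-CD40. Gm15056 was at 1.95 CPM or less in the isotype mice. Both Gm15056 and Orm1 were at 0 in control isotype replicate 1 mouse 2, so the size of their rises is uncertain. The largest falls besides Mgl2 were those of Fcrls (-3.79), Npl (-2.96), Prune2 (-2.68), Hist1h1e (-2.45), the chemokine receptor Ccr2 (-2.23), AY036118 (-1.98) and Plac8 (-1.97). S100a8 is a neutrophil gene: the 5 neutrophil markers summed to 23.4 to 72.3 CPM in control isotype and 51.6 and 97.1 CPM in control anti-CD40 mice, with Cxcr2 at 0 in the latter. NK cell markers summed to 14.3 to 97.1 CPM and 0 to 1.31 CPM, dendritic markers to 14.0 to 131 and 4.30 to 6.56, and monocyte markers to 370 to 875 and 180 to 275; their part in the calls was not tested.

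The calls were also read with each mouse left out in turn. Without either control anti-CD40 mouse that group holds 1 mouse, and the spread comes from the other groups. Of the 39 genes named for this comparison, 13 were called in every alternative: Atp6v0b, Ccl12, Ccl2, Ccl7, Cstb, Gpnmb, H2-D1, Htra1, Mif, Mrc1, Psap, Soat1 and Tnfaip2. Without control anti-CD40 mouse 2, which holds 177 of the 229 assigned members of its group, most of the 39 lost the call. Ctsd, Tcirg1, Mmp13, Mgl2, C3, Cxcl9, Cd274, Fth1, Blvrb, Hspa5, Mcm6 and Top2a were among them. Without mouse 1, Cd274 and Plac8 lost the call. Such a loss does not separate fewer mice and cells from a call that stands on 1 mouse.

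**Figure D4:**
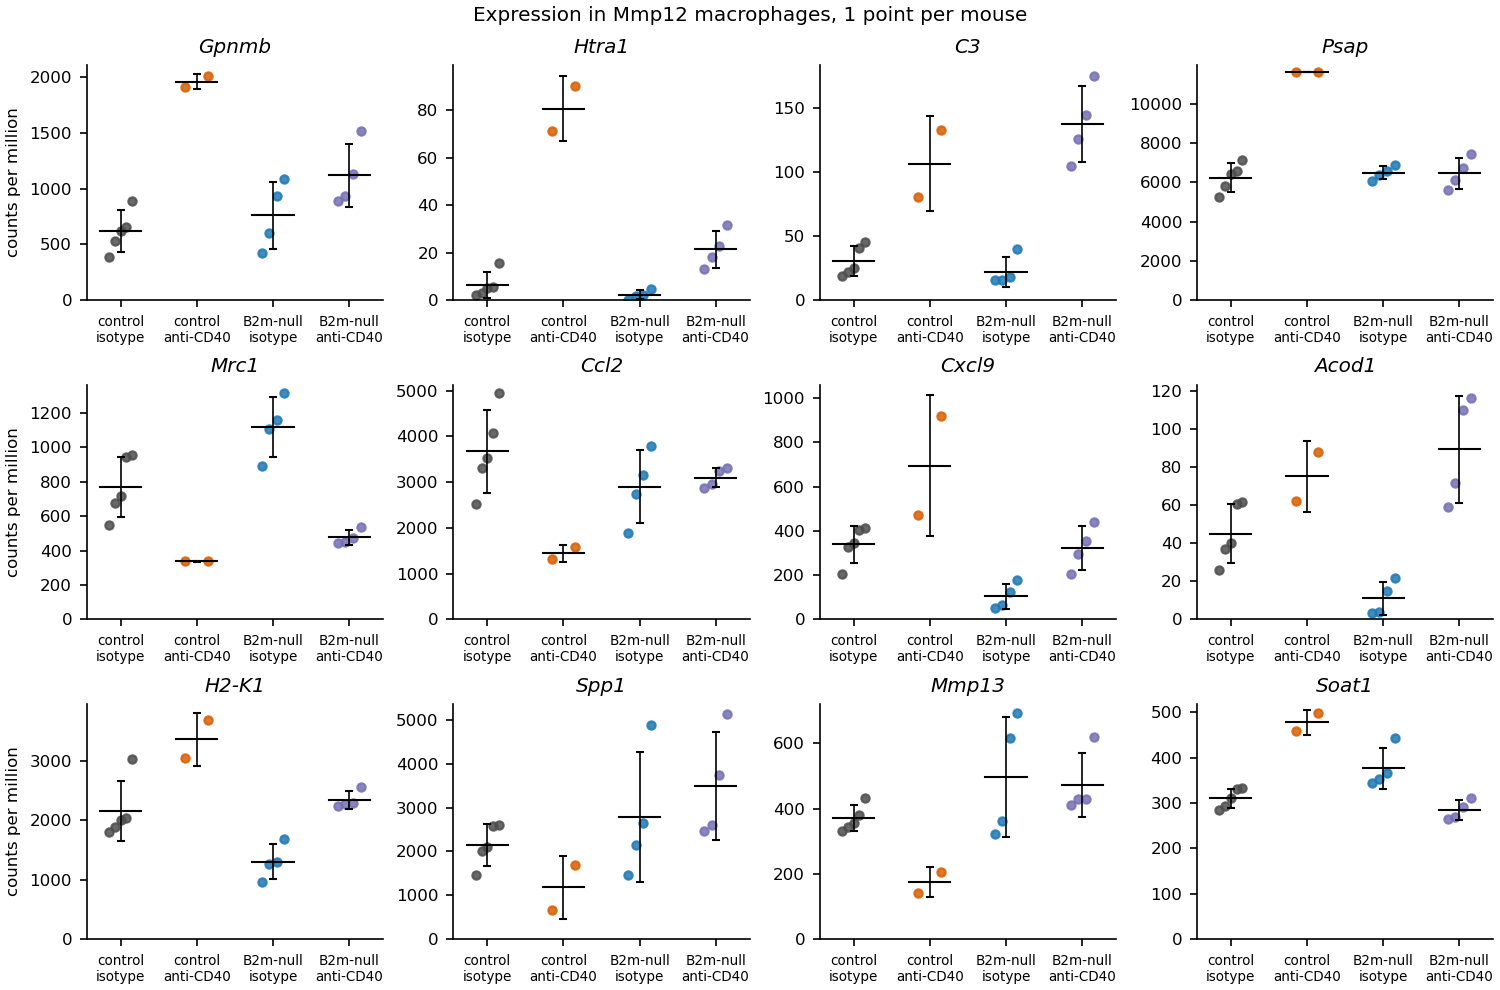
Level in CPM (TMM scaled) of 12 genes in Mmp12 macrophages by group; each point is 1 of 15 mice, with the group mean. Gpnmb, Psap and Soat1 are highest in the control anti-CD40 mice, Ccl2 is lowest there, and C3 and Acod1 are higher under anti-CD40 than under isotype in B2m-null tumours.

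In B2m-null tumours anti-CD40 raised MHC class I and interferon-gamma response genes and the complement genes C3 and Cfb of the Mmp12 macrophages, lowered the mannose receptor, and left Psap and the CCR2 chemokines without a call. 1325 genes were called (13.7%), 697 higher (7.2%) and 628 lower (6.49%). With library size alone the split was 284 higher and 1369 lower and the median of all genes moved from 0.00 to -0.17. Without B2m-null anti-CD40 replicate 2, a lane of 2 mice, 224 genes were called.

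9 of 13 MHC class I genes rose and 1 fell (median 0.78 against 0.00 over all genes). With isotype antibody the 4 mice had H2-K1 at 1302, 1675, 1269 and 967 CPM, and with anti-CD40 at 2280, 2233, 2554 and 2271, a rise of 0.85 ± 0.15 (edgeR adjusted p = 0.000832), and the immunoproteasome subunit Psmb8 went from 173, 185, 205 and 180 CPM to 255, 342, 409 and 428 (0.97 ± 0.14, adjusted p = 8.39e-05). Treated and isotype mice did not overlap for either gene, and H2-D1 rose by 0.78 (adjusted p = 0.000151). 10 of 20 interferon-gamma response genes rose and none fell (median 0.88): Cxcl9 rose by 1.61 ± 0.30 (adjusted p = 0.00142), and Acod1, which makes the antimicrobial metabolite itaconate, went from 4.17, 14.7, 21.8 and 3.57 CPM to 110, 116, 59.1 and 71.4 (3.21 ± 0.40, adjusted p = 2.41e-05). Uridine phosphorylase Upp1 rose by 3.33 ± 0.36. 2 of 8 MHC class II genes rose (none with library size alone), the invariant chain Cd74 among them (0.77 ± 0.24, adjusted p = 0.0383), whose change was 0.06 (adjusted p = 0.946) without B2m-null anti-CD40 replicate 2.

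4 of 7 complement genes rose and 1 fell (2 and 2 with library size alone). C3 went from 15.3, 17.6, 39.6 and 15.7 CPM to 145, 176, 105 and 126 (2.58 ± 0.26, edgeR adjusted p = 2.57e-06) and factor B (Cfb) from 14.9 to 31.1 CPM up to 89.9 to 163 CPM (2.49 ± 0.24, adjusted p = 1.30e-06). 4 of 23 NF-kB and CD40 response genes rose. The transmembrane chemokine Cxcl16 rose (0.91), one of 3 chemokines that rose against 1 that fell. Ccl2 averaged 2897 ± 797 and 3095 ± 208 CPM (0.09 ± 0.17, adjusted p = 0.790).

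Mrc1 was at 1106, 888, 1313 and 1156 CPM under isotype and at 474, 442, 452 and 537 under anti-CD40, a change of -1.24 ± 0.14 (edgeR adjusted p = 8.57e-06). Cd209a, a lectin of dendritic cells and monocyte-derived cells, was at 14.6 to 19.4 CPM under isotype and at 0, 0, 0.64 and 0.60 under anti-CD40 (-4.93 ± 0.54, adjusted p = 4.84e-06). 5 of 19 alternative activation genes fell and 1 rose (7 and none with library size alone). Iron genes went both ways, with 4 of 18 rising and 3 falling: the iron exporter ferroportin (Slc40a1) changed by -1.99 ± 0.35 and the cystine carrier Slc7a11 by 1.24 ± 0.23. Lipid genes did too, 3 of 21 rising and 3 falling (1 and 5 with library size alone). Fabp5 was at 0.66, and Cd36 and insulin-like growth factor 1 (Igf1) at -0.63 and -0.95.

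The lysosomal lists had medians near 0, and of the markers Gpnmb (0.55, edgeR adjusted p = 0.123), Atp6v0d2 (-0.26, adjusted p = 0.357) and Ctsl (0.13, adjusted p = 0.703) were not called. Of 18 proton pump subunits 6 rose and 2 fell (median 0.08), and of 29 cathepsins and hydrolases 6 rose and 1 fell (median 0.05); with library size alone these were 1 and 5, and 3 and 4, with medians of -0.08 and -0.10. Cstb rose in both tumours (0.62 ± 0.10 here, edgeR adjusted p = 0.000277), while Atp6v0a1 changed by -0.76 and Soat1 by -0.39. 3 of 20 cell cycle genes fell, Mki67 among them (-0.77), and 5 of 26 glycolysis and hypoxia genes rose.

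Among called genes at a mean of 20 CPM or more in either group whose mice did not overlap, the largest rises were those of Orm1 (5.401), Ly6i (4.18), Upp1, Acod1, Htra1 (3.18), argininosuccinate synthase Ass1 (2.89), C3 and AA467197 (2.54), and the largest falls those of Ccr7 (-4.74), Ear2 (-3.29), Hist1h1b (-2.73), Hist1h2ae (-2.16), Ednrb (-2.15), Hist1h1e (-2.13), Gm42418 (-2.10) and AY036118 (-1.995). Orm1 was at 0 CPM in B2m-null isotype replicate 1 mouse 3 and replicate 2 mouse 1, so the size of its rise is uncertain. Of 34 genes named here 26 were called in every alternative, and Ccr7, Cd74, Fabp5, Mki67, Soat1, Cxcl9, Atp6v0a1 and Cd36 were not. Ccr7 and Cd209a are also dendritic cell genes, and the 8 dendritic markers summed to 39.2 to 152 CPM under isotype and 3.87 to 6.76 under anti-CD40; their part was not tested. Gm42418 and AY036118 overlie ribosomal RNA sequence, and Gm42418 averaged 6224 ± 1830 CPM in control isotype, 1748 ± 556 in control anti-CD40, 6543 ± 1386 in B2m-null isotype and 1535 ± 191 in B2m-null anti-CD40 mice, moving with the antibody in both tumours. Mitochondrial shares were 3.38% to 4.62% over all 15 mice.

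The effect of anti-CD40 differed between the tumours for 135 genes (1.39% of 9679, edgeR test of the difference of the effects), 52 with a more positive change in B2m-null tumours (0.537%) and 83 with a more negative one (0.858%). Soat1 was the clearest of the named genes: it was at 333, 330, 285, 311 and 293 CPM in control isotype and 498 and 459 in control anti-CD40 mice, but at 367, 444, 354 and 344 in B2m-null isotype and 312, 270, 292 and 266 in B2m-null anti-CD40 mice. It thus moved in opposite directions, with a difference of -1.01 ± 0.15 (adjusted p = 0.000621). Psap was at 6099 to 6904 CPM in B2m-null isotype and 5592 to 7458 in B2m-null anti-CD40 mice, and its change differed from that in control tumours (difference -0.90 ± 0.15, adjusted p = 0.00210), as did that of Ctsd (-0.93 ± 0.21, adjusted p = 0.0221) and Tnfaip2 (-1.002 ± 0.24, adjusted p = 0.0330).

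The CCR2 chemokines that fell in control tumours had differences of 1.43 ± 0.27 for Ccl2 (edgeR adjusted p = 0.00568), 1.56 ± 0.30 for Ccl7 (adjusted p = 0.00517) and 2.01 ± 0.33 for Ccl12 (adjusted p = 0.00133). Acod1 (difference 2.36 ± 0.58, adjusted p = 0.0423), Upp1 (2.71 ± 0.64, adjusted p = 0.0330), Ass1 (2.32 ± 0.44, adjusted p = 0.00513) and Cfb (1.69 ± 0.36, adjusted p = 0.0172) changed more in B2m-null tumours. For Gpnmb the difference was -1.10 ± 0.36 (adjusted p = 0.130) and for Mmp13 1.10 ± 0.32 (adjusted p = 0.0940), neither called. The control arm of these differences again rests on 2 mice. Fewer genes were called without mouse 2, where its anti-CD40 group holds 1 mouse.

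Between tumours under isotype antibody, Mmp12 macrophages of B2m-null tumours had lower interferon-gamma response and MHC class I genes. 93 genes were called (0.961%), 29 higher (0.3%) and 64 lower (0.661%). 9 of 20 interferon-gamma response genes were lower and none higher (median -1.22 against 0.00 over all genes). Cxcl9 was at 413, 404, 329, 345 and 206 CPM in control isotype mice and at 125, 64.7, 177 and 50.3 in B2m-null isotype mice (-1.62 ± 0.30, edgeR adjusted p = 0.00783), and Irf8, a transcription factor of the interferon response and of myeloid development, was lower by -0.62 ± 0.12 (adjusted p = 0.0142). Every B2m-null mouse was below every control mouse for both. The median depth of members per mouse was 5262 to 8492 UMIs in control isotype and 6938 to 13334 in B2m-null isotype mice. The raw limit on interferon genes in the rule is stricter for deeper cells, and its part here was not tested.

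5 of 13 MHC class I genes were lower (median -0.56), with Psmb8 at -0.75 ± 0.13 (edgeR adjusted p = 0.00667) and H2-K1 at -0.73 ± 0.14 (adjusted p = 0.0126). The same genes rose under anti-CD40 in B2m-null tumours, a comparison that uses the same 4 isotype mice. Cfb (-1.45), Acod1 (-2.29), the Fc receptor Fcgr4 (-1.09) and the costimulatory molecule Cd86 (-0.76) were lower, and the scavenger receptors Stab1 (0.82) and Mrc1 (0.55) were higher. No member of the proton pump, cathepsin, lipid, metalloproteinase, glycolysis or cell cycle lists was called.

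Other large differences were Ednrb (1.45), Fcrls (1.41), Gas6, a ligand of the phagocytic receptor Mertk (1.14), Npl (1.03), Actn1 (0.82), Nxpe5 (0.80), Cela1 (0.74) and Dusp6 (0.68) on the higher side and Klrk1 (-1.69), Calhm6 (-1.39), Ms4a4c (-1.38), Gbp8 (-1.37) and H2-Q7 (-1.33) on the lower. Klrk1 is an NK cell receptor, and NK markers summed to 14.3 to 97.1 CPM in control isotype and 3.48 to 37.5 in B2m-null isotype mice, whose part was not tested. None of the 23 genes named for this comparison was called in every alternative. Without the B2m-null isotype replicate 2 lane 1 gene was called in all, and the 23 lost the call (edgeR adjusted p from 0.0560 to 0.596). Without the control isotype replicate 1 lane 9 were called. Leaving out either lane leaves fewer mice in a group, so a call lost there does not alone show a smaller difference.

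Under anti-CD40, Mmp12 macrophages of B2m-null tumours had more of the CCR2 chemokines, of Mmp13 and Spp1 and of 3 cell cycle genes than those of control tumours, and less Psap and Ctsd. 224 genes were called (2.31%), 83 higher (0.858%) and 141 lower (1.46%); with library size alone the split turned to 135 higher and 107 lower. Its control mice are the 2 anti-CD40 mice of the control tumour comparison above. 4 of 16 chemokines were higher and none lower: Ccl12 was at 243 and 546 CPM in control and 1935, 2121, 1310 and 1640 in B2m-null mice (2.09 ± 0.28, edgeR adjusted p = 0.000581), with Ccl2 at 1.10, Ccl7 at 1.15 and Ccl9 at 0.81. No B2m-null mouse was as low as either control mouse for these 4.

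Mmp13 was at 430, 429, 409 and 620 CPM in B2m-null anti-CD40 mice against 207 and 142 in control anti-CD40 mice (1.49 ± 0.27, edgeR adjusted p = 0.00368), and Spp1 at 2608, 2471, 3740 and 5123 against 670 and 1688 (1.54 ± 0.39, adjusted p = 0.0322). Both are genes of the Mmp12 programme described above, and Mmp12 in the same members averaged 3032 ± 457 and 2505 ± 903 CPM (no test, as the rule uses it). 3 of 20 cell cycle genes were higher, Cdk1 among them (1.36 ± 0.26, adjusted p = 0.00532). 4 of 29 cathepsins and hydrolases were lower, 2 with library size alone, with Psap at -0.85 ± 0.12 (adjusted p = 0.000884) and Ctsd at -0.70 ± 0.16 (adjusted p = 0.0192). Soat1 (-0.75), H2-D1 (-0.58) and Cd274 (-0.93) were lower and Tgfbi, a secreted matrix protein induced by TGF-beta, was higher (1.14).

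Other large differences, besides Ccl12 and Spp1, were Mgl2 (3.95), Npl (2.79), Dkc1 (1.71), Tmem176b (1.57), Igfbp4 (1.55) and Ass1 (1.53) on the higher side, and Gm36738 (-2.16), Htra1 (-1.82), Batf2 (-1.78), Gm15417 (-1.61), Gng11 (-1.56), Smim27 (-1.54), Hcst (-1.45) and B930036N10Rik (-1.445) on the lower. Of the 27 genes named, Ccl12 and Soat1 were called in every alternative. Without control anti-CD40 mouse 2 most of the 27 lost the call. The control group then holds 1 mouse and the spread comes from the other groups. A loss there does not separate fewer mice from a smaller difference.

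Whether these responses differed from those of other gated macrophages was asked with the interaction of treatment and cell set, each mouse contributing Mmp12 macrophages and Mmp12-negative cells (15 mice, mouse as a block, 10860 genes, CPM scaled over both sets). In control tumours 8 were called (0.0737%), 7 with a lower change in Mmp12 macrophages (0.0645%) and 1 with a higher one (0.00921%), and in B2m-null tumours 35 (0.322%), 26 lower (0.239%) and 9 higher (0.0829%).

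Saa3, which encodes serum amyloid A3, was the clearest in control tumours. In Mmp12 macrophages it was at 3.99, 2.26, 16.4, 15.8 and 10.7 CPM under isotype and at 43.2 and 99.7 under anti-CD40, and in Mmp12-negative cells of the same mice at 6.51, 11.8, 6.16, 2.26 and 5.95 and at 293 and 487. In both sets the treated mice stood above every isotype mouse, with the smaller change in Mmp12 macrophages (difference -3.66 ± 0.54, edgeR adjusted p = 0.00106). Ctsk also differed (-2.09 ± 0.30, adjusted p = 0.00106), with 310 ± 318 CPM in treated Mmp12 macrophages against 136 ± 33.3 under isotype, and 115 ± 116 against 12.5 ± 4.10 in the negative cells. The folate receptor Folr2 (-1.26), the lectin Clec10a (-1.56) and the heat-shock gene Hspa1a (-1.99) differed in the same direction and Alas1, the first enzyme of heme synthesis, in the other (1.22 ± 0.21, adjusted p = 0.00593; 158 against 60.9 CPM in Mmp12 macrophages, 42.4 against 41.0 in negative cells). Of these 6, Saa3 was called in every alternative, and the others were not called without control anti-CD40 mouse 1. Alas1, Clec10a and Folr2 also lost the call with members thinned to 5000 UMIs (edgeR adjusted p from 0.109 to 0.997), and Hspa1a without mouse 2. Without either mouse the treated control group holds 1 mouse, so a loss there does not separate fewer mice from a smaller difference.

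In B2m-null tumours several MHC class II genes changed less under anti-CD40 in Mmp12 macrophages than in the Mmp12-negative cells. H2-Ab1 was at 663, 1071, 1125 and 580 CPM under isotype and 836, 880, 1826 and 1755 under anti-CD40 in Mmp12 macrophages, and at 682, 909, 1623 and 774 and at 2204, 1965, 3368 and 4027 in negative cells (difference -0.93 ± 0.13, edgeR adjusted p = 0.000116). H2-Aa (-0.91), Cd74 (-0.83), H2-Eb1 (-0.89), H2-DMb1 (-0.80) and Ciita (-1.08) differed likewise. Lysozyme 1 (Lyz1) averaged 20.5 ± 2.55 CPM under isotype and 221 ± 78.2 under anti-CD40 in negative cells, and 40.8 ± 31.3 and 73.4 ± 26.8 in Mmp12 macrophages (difference -2.67 ± 0.36, adjusted p = 0.000116). Ctsd went the other way (difference 0.55 ± 0.09, adjusted p = 0.00155), at 3795 against 4240 CPM in Mmp12 macrophages and 1976 against 3243 in negative cells.

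The haemoglobin genes Hbb-bs, Hbb-bt, Hba-a1 and Hba-a2, red cell transcripts of which the last 2 are near-identical copies, were among the 6 of lowest adjusted p. Hbb-bs averaged 127 ± 150 CPM in Mmp12 macrophages under isotype and was at 0 in all 4 anti-CD40 mice, and averaged 31.0 ± 35.6 and 53.3 ± 106 CPM in the negative cells. None of the 4 was called without B2m-null anti-CD40 replicate 2 mouse 1 (adjusted p from 0.902 to 0.970), whereas H2-Ab1 and Lyz1 were called in every alternative.

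**Figure D5:**
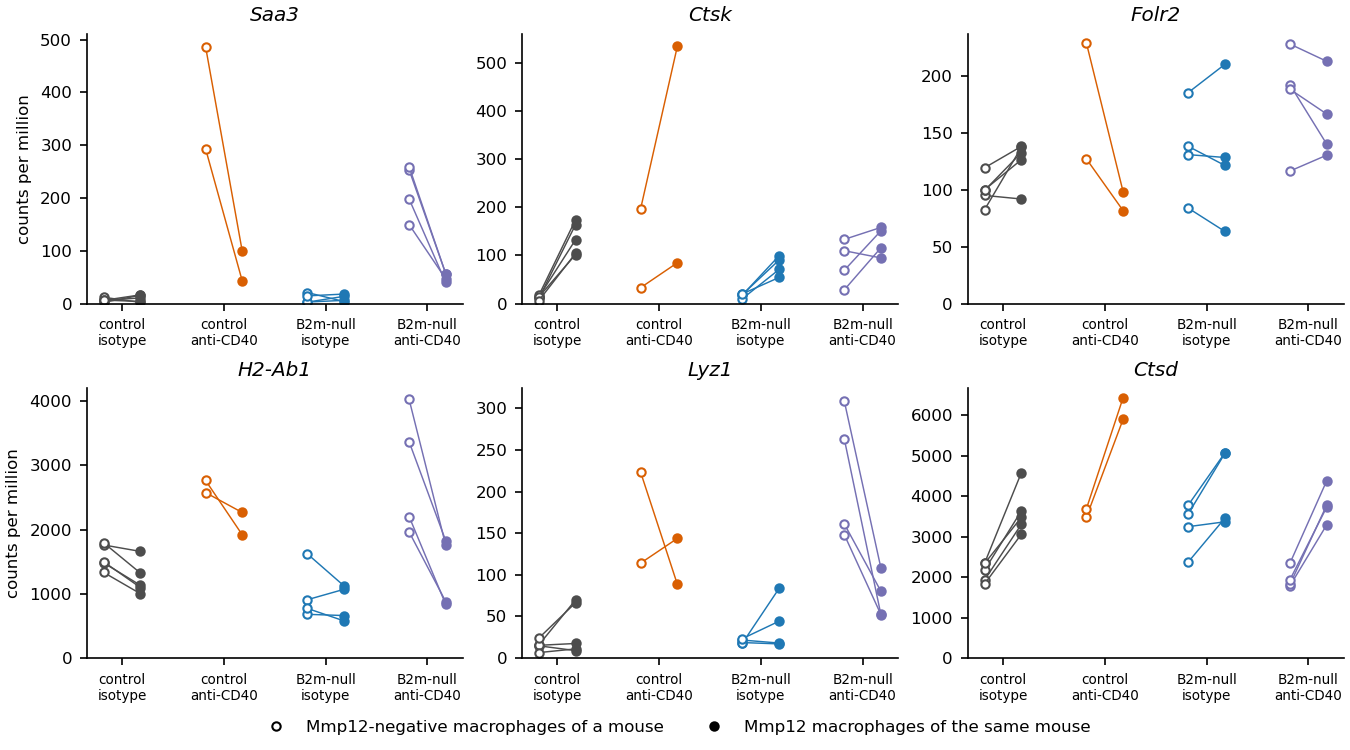
Level in CPM of 6 genes in Mmp12 macrophages (filled) and Mmp12-negative gated macrophages (open) of the same mouse, joined by a line, for the 15 mice by group. Under anti-CD40 the open points of Saa3 stand above the filled ones in each of the 6 treated mice, and those of H2-Ab1 do so in each of the 6 as well.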

How the data were processed

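The authors deposited, for each of 8 lanes, a matrix of UMI counts per gene and cell barcode and of hashtag counts; per the submitters' processing notes these were made with Cell Ranger 3.0.0 and bcl2fastq 2.20.0.422 on mm10. Nothing was normalized before deposit. Barcodes with 20 or more hashtag counts were assigned to mice by a mixture model with posterior 0.9 or more, or where only the leading hashtag exceeded 2.5 SD. Doublets were called at 2.5 SD, and no other doublet caller was run. The members, gene lists and markers were chosen with earlier results of these data known.

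Raw counts of members were summed per mouse (20 or more members) and tested with edgeR 4.0.16 (quasi-likelihood test, TMM scaling, filter on low counts, Benjamini-Hochberg adjustment over all genes, threshold 0.05) in R 4.3.3. The 15 genes of the rule stayed in library sizes and out of the tests. CPM in comparisons between groups carry the TMM factor; the description against Mmp12-negative cells and the other cell type markers use plain CPM. Shares were thinned to 5000 UMIs a cell and compared with exact two-sided permutation tests. Genes were named by rule: against Mmp12-negative cells, the 12 highest and 12 lowest ratios of 1 sign in every mouse; per comparison, up to 4 called genes of lowest adjusted p from each list, and the 8 largest rises and falls among called genes of 20 CPM or more whose mouse ranges did not overlap; between cell sets, the 6 of lowest adjusted p. A part of them is printed, chosen after their values were seen, and so were the further genes named against Mmp12-negative cells or between cell sets. The edgeR script was tested on simulated data, where 4.51% to 8.09% of calls were false at the threshold of 0.05. Of genes changed 2-fold, 44% to 75% were recovered. The lowest, 44%, held for anti-CD40 in control tumours and between tumours under anti-CD40. Alternatives were DESeq2 1.42.0, limma 3.58.1 (voom), other scalings, other Mmp12 limits, thinned members, lanes as the unit, a replicate block and leaving out each mouse or lane. Mice are separate animals; the control anti-CD40 lanes are technical repeats and were summed.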

Additional observations from a re-analysis of the deposited data

Results flagged for a closer look

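The rule for a sample that stands apart flags about 1 in 20 groups by chance where values are independent and normal. Genes measured in the same mice are not independent, and some flags, such as Gm15056 and Ear2, lie near 0. No excess over chance is therefore read. A sample that stood apart from the rest of its group was found in 19 of 191 groups tested. Of these, 11 were control isotype replicate 1 mouse 1, which was the highest of its group in Mmp12 macrophages for Calhm6 (95.42 CPM), Cfb (89.58), Gbp8 (40.89), Gm15056 (1.947), H2-K1 (3036), H2-Q7 (222), Htra1 (15.58), Ly6i (13.63), Ms4a4c (227.8) and Tnfaip2 (163.6) and the lowest for Nxpe5 (7.789). B2m-null isotype replicate 2 mouse 1 stood apart for C3 (39.63 CPM) and Cfb (31.14), and B2m-null isotype replicate 1 mouse 3 for Ccr7 (64.66) and Irf8 (141.1). In B2m-null anti-CD40 mice, Ear2 was at 0 CPM in replicate 1 mouse 1, H2-K1 at 2554 in replicate 2 mouse 1 and Mmp13 at 619.6 in replicate 2 mouse 2. In all gated macrophages, Mmp12 was at 292.3 CPM in B2m-null isotype replicate 1 mouse 2, below the other 4 mice of its group.

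The anti-CD40 effect differed between the tumours for 18 of the named genes by edgeR's test of the difference (B2m-null minus control, log2). The difference was positive for Upp1 (2.707), Acod1 (2.36), Ass1 (2.322), Ccl12 (2.014), Ms4a4c (1.971), Cfb (1.686), Ccl7 (1.556), Ccl2 (1.434), Tgfbi (1.40), Cdk1 (1.292) and Cd86 (1.172). It was negative for Smim27 (-2.085), Hcst (-1.57), B930036N10Rik (-1.273), Soat1 (-1.015), Tnfaip2 (-1.002), Ctsd (-0.9296) and Psap (-0.902). All of these comparisons use the same 2 control anti-CD40 mice.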

How the results depend on the processing

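Leaving out 1 mouse or 1 lane gave 164 to 749 genes called in Mmp12 macrophages for anti-CD40 in control tumours (lowest without control anti-CD40 mouse 2), 224 to 1376 in B2m-null tumours (lowest without B2m-null anti-CD40 replicate 2), 1 to 114 between tumours under isotype (lowest without B2m-null isotype replicate 2), 11 to 282 under anti-CD40 and 36 to 163 for the difference of effects (both lowest without control anti-CD40 mouse 2). For the differences from Mmp12-negative cells it gave 1 to 19 genes in control tumours (lowest without control anti-CD40 mouse 1) and 22 to 40 in B2m-null tumours. Library size alone, chosen after seeing the data, gave 1071 genes for anti-CD40 in control tumours and 15 for the difference from negative cells there. Members thinned to 5000 UMIs gave 453 and 709 genes for anti-CD40 in control and B2m-null tumours and 148 between tumours under anti-CD40; DESeq2 gave 856 for anti-CD40 in B2m-null tumours and 220 for the difference of effects. Under isotype, the tumours differed in 154 genes with Mmp12 at 2 UMIs or more, 60 at 6 or more, 199 by limma-voom and 344 with no filter on low counts. Under anti-CD40 these were 137 at 6 or more, 50 with lanes as the unit and 434 with no filter, and for the difference of effects 218 at 2 or more, 43 with lanes and 312 with no filter. The causes were not tested, and without either control anti-CD40 mouse that group holds 1 mouse.

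The share differences ran, without 1 mouse, from -9.15 to -3.54 and from -5.84 to -1.65 points for anti-CD40 in control and B2m-null tumours, and from 3.85 to 8.04 and 5.74 to 11.3 points between tumours. The Mmp12 difference between tumours under anti-CD40 in gated macrophages ran from 0.78 to 2.12 and gained the call without B2m-null isotype replicate 1 mouse 2 (1.31, adjusted p = 0.0467). Uncalled changes near 0 turned sign: Ctsl under anti-CD40 was -0.16 with lanes and -0.14 with library size in control tumours and -0.19 and -0.18 in B2m-null tumours, and without 1 mouse ran from -0.24 to 0.23 and from -0.11 to 0.22, and Atp6v0d2 between tumours under anti-CD40 ran from -0.099 to 0.34. Of 4555 values for 147 single gene results, the Mmp12 levels left out, 4146 kept direction and call, 394 lost the call, 2 gained it and 13 reversed. Replicate numbers did not pair the samples (correlations 0.0555, 0.015 and 0.0607). With the replicate block, 1310 genes were called for anti-CD40 in B2m-null tumours and 91 between tumours under isotype. The number of mice and the 229 assigned members of the control anti-CD40 group limit what can be seen.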
